A study of Homo sapiens and Mus musculus with 22 samples.

Results

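H69M is a line derived from the small cell lung cancer (SCLC) line NCI-H69 (H69), and its cells can be sorted by their surface PD-L1, a ligand of the T cell checkpoint receptor PD-1 that CD274 encodes. Here the PD-L1 high fraction of H69M was set against parental H69, 3 libraries against 3, over every gene of the table that holds both. The table lists 25435 genes, of which 15445 had enough counts to be tested, and the 6 libraries compared are part of the 22 of the series. The comparison spans the whole distance between a parent whose MHC class I is labelled low or negative and a sorted fraction in which it is labelled high.

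H69 is a human neuroendocrine SCLC line, here unsorted. H69M is described in the labels as derived from H69 in earlier published work and as MHC class I high, and its unsorted libraries carry that label. Sorting H69M gave the PD-L1 low fraction, labelled MHC class I low or negative, and the PD-L1 high fraction, labelled MHC class I high. All of these groups are cultured cells of 1 parental line with no drug treatment named, so each state is seen in 1 lineage, and no source used here gives the sort gates. Unsorted H69M and its PD-L1 low fraction, 3 libraries each, entered the same model and are set beside the genes below. The labels do not say whether the 3 libraries of a group came from separate cultures, so the p-values rest on the differences among these libraries and those may be technical.

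MHC class I molecules show peptides from inside the cell to cytotoxic T cells. Their heavy chains pair with beta-2 microglobulin, load peptides cut by the immunoproteasome and carried by the TAP transporter, and are switched on by interferon and by the coactivator NLRC5. SCLC cells are known for low MHC class I and for a neuroendocrine programme under factors such as INSM1. A non-neuroendocrine SCLC state with YAP1, REST, AXL and vimentin is also known. REST represses neuronal genes, and YAP1 and TAZ act through the TEAD factors on genes of adhesion and matrix.

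Several of the genes described below have short promoter sequences that bear on these programmes. A few are printed here because the genes of the interferon-stimulated list rose together. Only promoters that hold the letters searched for are printed. The letters GAAANNGAAA, searched on both strands over the 250 bases before the start, are the core of the interferon-stimulated response element (ISRE). They are given in capitals, with the GRCh38.p14 position of the printed run and its strand from the RefSeq promoter table, and each run is written 5′ to 3′ along the gene and ends at the base before the start.
IFI44L (chr1:78620274-78620447, plus strand): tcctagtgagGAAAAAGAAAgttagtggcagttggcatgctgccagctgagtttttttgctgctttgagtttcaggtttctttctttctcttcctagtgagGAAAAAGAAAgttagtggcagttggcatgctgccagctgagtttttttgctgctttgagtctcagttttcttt
IFITM1 (chr11:313990-314039, plus strand): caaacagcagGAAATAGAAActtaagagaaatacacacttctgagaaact
IFITM3 (chr11:320861-320922, minus strand): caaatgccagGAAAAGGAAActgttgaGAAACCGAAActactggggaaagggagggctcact
TAP1 (chr6:32853705-32853848, minus strand): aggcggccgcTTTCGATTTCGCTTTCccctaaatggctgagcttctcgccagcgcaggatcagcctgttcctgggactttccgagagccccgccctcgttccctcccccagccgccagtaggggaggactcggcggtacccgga
B2M (chr15:44711363-44711516, plus strand): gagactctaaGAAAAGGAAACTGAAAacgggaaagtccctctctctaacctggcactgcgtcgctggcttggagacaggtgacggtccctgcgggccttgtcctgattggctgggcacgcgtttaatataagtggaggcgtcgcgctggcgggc
In TAP1 the matches are on the opposite strand and appear as the reverse complement, and the 2 matches of B2M overlap, as do the 2 of TAP1. Of the 11931 tested genes with a promoter in that table, 2.3% hold these letters, against 3.07% of all 27305 promoters. They are in 20 of the 35 interferon-stimulated genes that matched (57.1%), in 4.34% of the 1453 matched genes that rose at least 4-fold, and in 0.951% of the 526 that fell at least 4-fold. The letters are in 2 of the 6 matched immunoproteasome and activator genes and in 2 of the 7 matched MHC class I genes. A match describes the letters and shows no binding.

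Values are CPM (counts scaled to the TMM-adjusted library size), given as mean ± SD (n = 3) or library by library. A log2 fold change is followed by ± a standard error computed from the F statistic of its test. For genes near zero counts in H69 that error can be too small: the change of VIM, 14.06 ± 0.27, was 15.66 without H69 replicate 2. Rose and fell are used of genes with an adjusted p under 0.05 in edgeR's quasi-likelihood F-test (Benjamini-Hochberg over all tested genes). CPM is not per gene length, so levels are compared between groups and not between genes. Total counts were 12814594 to 26834561 over the 12 libraries of the table, and 16417 to 17901 genes had a count. The sorted gene behaved as its label states: CD274 was at 0.0402, 0.113 and 0.0807 CPM in H69 and 12.9, 13.4 and 13.7 CPM in PD-L1 high, a log2 fold change of 7.30 ± 0.27. The sort selects on this gene, so its level is a check and not a finding.

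The PD-L1 high fraction differed from H69 at most tested genes. Of 15445 genes, 11986 were called (77.6%), 5883 higher (38.1%) and 6103 lower (39.5%), and at 12037 genes (77.9%) the 3 libraries of one group did not overlap the 3 of the other. The median log2 fold change was -0.02 and the median absolute change 0.58, so most calls were small. Large changes were more often rises: 1940 genes rose and 754 fell by at least 2 on the log2 scale, and 678 rose and 65 fell by at least 6. Among genes with no count in any H69 library, 660 had more than 3 counts in PD-L1 high, and the reverse held for 218 genes. In bulk libraries a larger share of cells that express a gene and more of its RNA per cell cannot be told apart. Since 77.6% of genes were called, the count of calls in a gene list is read below beside its median change. Under a test against a 2-fold minimum, 4117 genes were called, 2575 higher and 1542 lower. Of the 217 genes tested that are named here, 37 lost their call under that test. CDH1, GJA1, KCNH6, LAMA3, SRRM4 and TRIB3 were among them, and the others of the 37 had a log2 fold change under 1 in size.

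**Figure D1:**
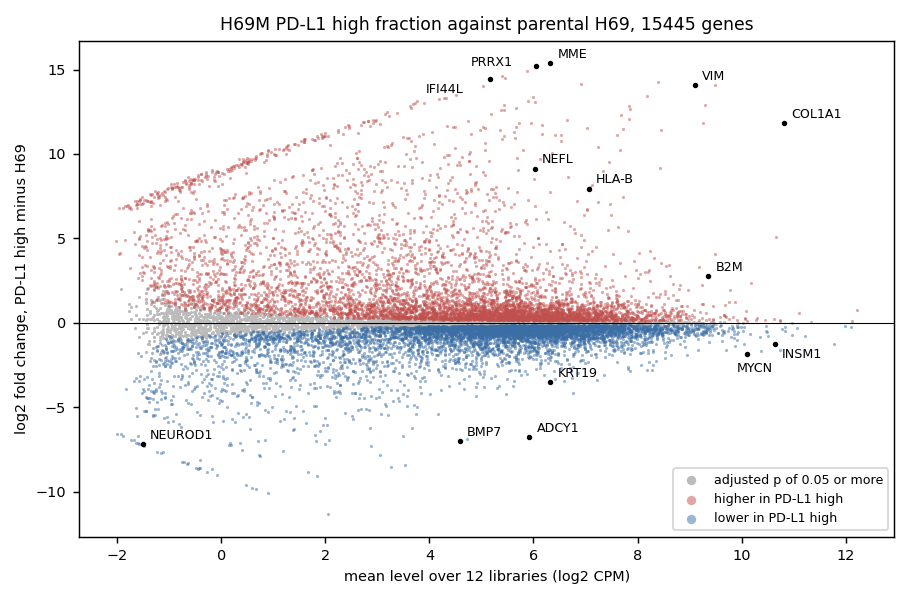
Each point is 1 of 15445 tested genes, with its mean level over the 12 libraries (log2 CPM) on the x axis and its log2 fold change of PD-L1 high minus H69 on the y axis. The 5883 higher genes are red, the 6103 lower genes blue and the others grey; the straight upper edge is made of genes with no count or nearly none in H69, whose fitted change depends on the model's prior count.

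The genes of MHC class I itself rose together. The light chain gene B2M was at 255, 261 and 259 CPM in H69 and at 1848, 1687 and 1687 CPM in PD-L1 high, a log2 fold change of 2.75 ± 0.05 (edgeR adjusted p = 4.8e-20). HLA-C, a classical heavy chain, went from 46.97 ± 0.499 to 907 ± 43.9 CPM. HLA-B, another, was nearly silent in the parent, at 1.85, 2.11 and 1.21 CPM against 501, 427 and 425 CPM, and its log2 fold change of 7.94 ± 0.18 was the largest in this list. For all of these genes the 3 PD-L1 high libraries lay above the 3 H69 libraries. HLA-E, a ligand of inhibitory NK receptors, rose from 1.34 ± 0.394 to 99.8 ± 5.58 CPM. HLA-G had 3 counts over the H69 libraries and 583 in PD-L1 high, a CPM ratio of 232 (95% counting interval 79.00 to 1128). MICB, a stress ligand of the activating NK receptor NKG2D, was the 1 member that fell, by 2.67 ± 0.15 on the log2 scale. In all 8 of 9 members rose, with a median of 4.27 against -0.02 over all genes, and their summed level was 459 to 487 CPM in H69 and 4082 to 4505 CPM in PD-L1 high. Class I genes are close copies of one another, and no source used here says how reads shared between them were counted. Values of single heavy chains are therefore less certain than the sum.

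Some interferon-inducible parts of the machinery that makes and loads peptides rose from near zero. TAP1, a subunit of the peptide transporter, was at 0.121, 0.227 and 0 CPM in H69 and 194, 174 and 160.4 CPM in PD-L1 high. Its log2 fold change of 10.23 ± 0.22 rests on 9 H69 counts, and it was 10.99 without H69 replicate 2. TAP2, the partner subunit, rose from 0.757 ± 0.210 to 126 ± 1.30 CPM. The immunoproteasome subunit PSMB8 rose from 0.278 ± 0.0771 to 63.5 ± 2.61 CPM. PSMB9, the other inducible subunit encoded beside the TAP genes, had no count in H69 and 43.8, 41.1 and 39.2 CPM in PD-L1 high, at least 884-fold higher against a floor of 3 counts over the group. PSMB10, the remaining inducible subunit, went the other way: it fell by 0.50 ± 0.17 on the log2 scale (edgeR adjusted p = 0.0116), a call that was lost without H69 replicate 2 (0.0628) or without PD-L1 high replicate 2 (0.0597). PSME1, a subunit of the PA28 activator, rose by 1.99 ± 0.06. ERAP2, which trims peptides in the endoplasmic reticulum, rose from 8.33 ± 0.527 to 336 ± 5.52 CPM, and THOP1, a cytosolic peptidase that destroys peptides, fell by 0.70 ± 0.05.

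As lists, 12 of 13 transport, trimming and loading genes rose and 1 fell, with a median of 0.36, so the large changes were those of a few members. Of 6 immunoproteasome and activator genes 5 rose (median 1.63). The constitutive core proteasome served as the neighbouring comparison: 5 of 14 genes rose, 3 fell and 6 passed in neither direction, with a median of -0.04. The count of falls was 5 without H69 replicate 1, without PD-L1 low replicate 1, with no filter or with library totals alone, and 1 without H69 replicate 2, without PD-L1 high replicate 2 or in the fit of only these groups. Its largest rise was that of PSMA5, by 0.45 ± 0.08, and PSMB1 fell by 0.31 ± 0.05. MHC class II genes were mostly too low to test. Of 11 in the table only HLA-DMA and CTSS were tested, and both rose, CTSS (cathepsin S, a lysosomal protease) from 0.266 ± 0.146 to 14.9 ± 1.06 CPM and HLA-DMA (a peptide editor) from 0.144 ± 0.0211 to 0.598 ± 0.252 CPM. In the fit of only these groups 1 of them rose.

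Regulators of this pathway rose with it. NLRC5, the class I coactivator, was at 0.282, 0.113 and 0.161 CPM in H69 and 18.6, 19.1 and 19.6 CPM in PD-L1 high, a log2 fold change of 6.62 ± 0.18. The feedback inhibitors SOCS1 and SOCS3 rose by 3.33 ± 0.15 and 2.77 ± 0.10. Of 22 interferon and MHC regulators, 19 rose and 2 fell, with a median of 1.10. The 2 that fell were RFX5, a subunit of the complex that binds class I and class II promoters, by 0.57 ± 0.05, and USP18, which removes ISG15 and dampens interferon signalling, by 0.61 ± 0.07. USP18 is itself interferon-induced in many cells, and here it moved against the list below.

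Every tested gene of the interferon-stimulated list rose: 42 of 42, against 38.1% of all tested genes, with a median of 6.94 and a range from 1.55 to 14.46. Their summed level was 137 to 138 CPM in H69 and 2857 to 3174 CPM in PD-L1 high. IFI44L, whose printed promoter carries the ISRE letters at 2 places, had no count in H69 and 134, 143 and 139 CPM in PD-L1 high, at least 2941-fold higher. The membrane protein IFITM1, which blocks virus entry, also had no count in H69 and reached 60.9, 57.3 and 46.6 CPM, at least 1186-fold higher. IFITM3, its neighbour with 2 such matches, had 1 count in H69 and 229.8, 249.8 and 223 CPM in PD-L1 high, a ratio of 14968 (95% counting interval 2686 to 591250.0). SAMD9, an antiviral factor, had the smallest rise of the list, from 39.8 ± 1.76 to 117 ± 5.49 CPM. All 42 were also above unsorted H69M in the direct test, where 27.3% of tested genes were above both H69 and H69M. In the PD-L1 low fraction the summed level was 144 to 172 CPM, with H69M at 409.5 to 444 CPM.

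Sensors that feed interferon production moved the same way. TMEM173 (STING), the adaptor of cytosolic DNA sensing, was at 1.53, 1.17 and 0.807 CPM in H69 and 67.1, 69.2 and 73.5 CPM in PD-L1 high, a log2 fold change of 5.81 ± 0.12. IFI16, a DNA sensor, had 1 count in H69 and a mean of 72.03 CPM in PD-L1 high, a ratio of 4605 (95% counting interval 826 to 181930.0). TLR3, the endosomal receptor of double-stranded RNA, had no count in H69 and 1.81, 1.60 and 2.04 CPM in PD-L1 high, at least 38.2-fold higher. Of 13 tested sensing genes 11 rose and none fell (median 1.49).

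**Figure D2:**
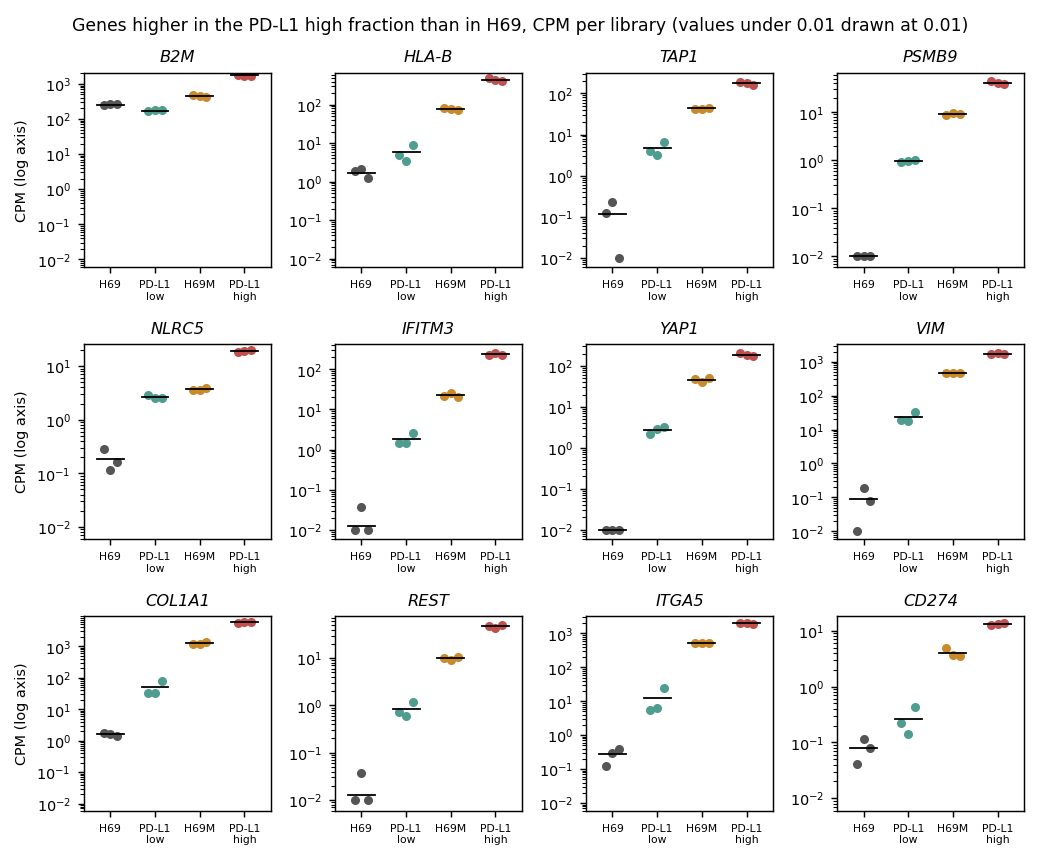
Levels of 12 genes in each of the 12 libraries (CPM, log axis, values under 0.01 drawn at 0.01), ordered H69, PD-L1 low, unsorted H69M and PD-L1 high; each point is a library and the bar is the group mean. In all 12 genes the 3 PD-L1 high libraries lie above the 3 H69 libraries and above unsorted H69M; B2M stands at 255 to 261 CPM in H69 and at 1687 CPM or more in PD-L1 high.

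Surface ligands that meet lymphocytes changed in both directions. Among checkpoint ligands, 11 of 13 rose (median 6.76). PDCD1LG2, which encodes PD-L2, had no count in H69 and a mean of 20.5 CPM in PD-L1 high, at least 439-fold higher. IDO1, the tryptophan-degrading enzyme often grouped with these ligands, had no count in H69 and 36.5, 34.7 and 34.1 CPM, at least 748-fold higher. C10orf54, which encodes the checkpoint ligand VISTA, had 2 H69 counts and a ratio of 654 (95% counting interval 181 to 5409). TNFRSF14 (HVEM) was the 1 that fell, from 3.54 ± 0.132 to 2.27 ± 0.0428 CPM, and 2 fell without H69 replicate 3 or without PD-L1 high replicate 1. Of 12 NK cell ligands 8 rose and 4 fell (median 1.25). ICAM1, the adhesion ligand of LFA-1, was at 1.49, 1.51 and 1.37 CPM in H69 and 174, 189.5 and 178 CPM in PD-L1 high, while NCR3LG1 (B7-H6), the ligand of the activating receptor NKp30, fell by 1.74 ± 0.07. The NKG2D ligands did not move as a unit: MICA had 2 H69 counts and 0.538, 0.641 and 0.774 CPM in PD-L1 high, and MICB fell as given above. MICA and RAET1G stayed low in absolute terms, RAET1G at 1.19 CPM in PD-L1 high.

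Most tested inflammatory mediators rose. Of 20 tested cytokines and chemokines 19 rose, with a median of 6.10, or 5.42 when genes without a count in H69 are set at their bound. CXCL11, which draws CXCR3-bearing T cells, had no count in H69 and 7.93, 6.78 and 5.98 CPM in PD-L1 high, at least 149-fold higher. IL33, an alarmin, was at least 283-fold higher and IL1B at least 193-fold higher, both from no count. CXCL8, the neutrophil attractant, fell from 13.9 ± 0.603 to 2.82 ± 0.615 CPM. NF-kB genes rose in 15 of 18 cases (median 1.87), with TNFAIP2 up by 4.77 ± 0.10 and the apoptosis inhibitor BIRC3 by 6.36 ± 0.24, while NFKBIB, an inhibitor subunit, fell by 0.64 ± 0.06. Complement genes rose in 12 of 14 cases (median 3.53). CFI, the protease that inactivates C3b, went from 0, 0.0755 and 0.161 CPM to 173, 172 and 171 CPM. The log2 fold change of CFI, 11.28 ± 0.17, rests on 4 H69 counts and was 10.62 without H69 replicate 1 and 11.90 without H69 replicate 3. CFD, the factor that starts the alternative pathway, fell by 1.77 ± 0.16.

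Genes of the death receptor route rose in 19 of 20 cases, with a median of 2.91. TNFRSF10B, the TRAIL receptor DR5, was at 0.161, 0.151 and 0.0807 CPM in H69 and 63.9, 54.3 and 55.99 CPM in PD-L1 high. CASP1, the protease of inflammasomes, had no count in H69 and was at least 236-fold higher, and CASP10, an initiator caspase, at least 134-fold higher. CFLAR, which blocks caspase 8, had the 1 fall, of 0.15 ± 0.06 (edgeR adjusted p = 0.0292). That call did not hold under DESeq2's test (0.157), with DESeq2's size factors in edgeR (0.1045) or in the fit of only these groups (0.14). It was also lost without H69 replicate 1 (0.0701) or 3 (0.0508) or PD-L1 high replicate 1 (0.0637) or 2 (0.0514). The BCL2 family behaved otherwise, with 4 rises and 10 falls among 15 genes (median -0.34). HRK, a neuronal BH3-only death gene, fell from 7.40 ± 0.373 to 0.429 ± 0.210 CPM. PMAIP1 (NOXA) rose by 0.44 ± 0.08 and BMF by 0.58 ± 0.08.

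Mesenchymal and matrix genes rose in most cases, several from near zero. VIM, the intermediate filament of mesenchymal cells, was at 0, 0.189 and 0.0807 CPM in H69 and 1707, 1769 and 1680.3 CPM in PD-L1 high. Its log2 fold change of 14.06 ± 0.27 rests on 6 H69 counts and was 13.39 without H69 replicate 1 and 15.66 without H69 replicate 2. Of 32 structural genes of mesenchymal cells 30 rose (median 4.48), and their summed level was 1870.1 to 2024 CPM in H69 and 18697 to 19129.9 CPM in PD-L1 high. The caveolin genes CAV1 and CAV2, which build membrane caveolae, rose from 0.107 ± 0.0630 CPM to 735 ± 11.6 CPM and from no count to 143 ± 15.9 CPM, the second at least 3045-fold higher. S100A6, a calcium-binding protein, was the exception and fell from 225 ± 22.7 to 162 ± 17.1 CPM.

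Collagens rose in 19 of 22 cases, with a median of 7.95, or 7.38 with genes lacking an H69 count at their bound. COL1A1, the main chain of type I collagen, was at 1.77, 1.62 and 1.37 CPM in H69 and 5589, 5998 and 6045 CPM in PD-L1 high (log2 fold change 11.81 ± 0.33, edgeR adjusted p = 1.08e-17). COL6A1 rose from 0.252 ± 0.134 to 641 ± 28.5 CPM, and its partner chain COL6A2 had 3 H69 counts and 1031, 1058 and 1068 CPM in PD-L1 high. Some chains of type IV collagen, the network of basement membranes, went the other way: COL4A6 fell by 2.16 ± 0.07 and COL4A3 by 4.64 ± 0.39, the latter on 6 counts in PD-L1 high, with -3.99 without its replicate 1 and -5.53 without its replicate 2. The summed level of the collagen list was 311 to 343 CPM in H69 and 16026 to 16607 CPM in PD-L1 high. Among matrix glycoproteins 23 of 28 rose (median 4.67). SPARC, a collagen-binding glycoprotein, was at 0, 0.264 and 0.0807 CPM and 2349, 2329 and 2304 CPM, a log2 fold change of 14.11 ± 0.30 that rests on 8 H69 counts and was 13.42 without H69 replicate 1 and 16.10 without H69 replicate 2. TGFBI, an integrin-binding protein induced by TGF-beta, rose from 0.158 ± 0.0806 to 773 ± 34.3 CPM. NOV (CCN3), a relative of CTGF, fell by 3.43 ± 0.11, and FBLN1, a fibulin, by 1.78 ± 0.07.

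Of the matrix proteases and inhibitors 25 of 27 rose (median 4.06). ADAMTS12, ADAMTS9 and the collagenase MMP13 had no count in H69 and were at least 430.2-, 238- and 123-fold higher. MMP10, a stromelysin, fell by 3.18 ± 0.14. Integrins and laminins rose in 25 of 28 cases (median 3.26). ITGA5, the chain of the fibronectin receptor, was at 0.121, 0.302 and 0.404 CPM in H69 and 1991, 1996 and 1915 CPM in PD-L1 high, a log2 fold change of 12.90 ± 0.45. The collagen-receptor chains rose too, ITGA1 from 0.183 ± 0.0378 to 169 ± 4.17 CPM and ITGA11 from 3 counts over the H69 libraries to 44.3 ± 0.853 CPM. The 2 members that fell were LAMA3, by 1.07 ± 0.06, and ITGA6, by 0.69 ± 0.06, while another laminin chain gene, LAMB3, rose from 0.238 to 59.3 CPM.

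The regulators of the epithelial to mesenchymal transition did not move as one. Of 16 genes 8 rose and 8 fell (median -0.02), and the list holds both inducers and epithelial guardians. The homeobox inducer PRRX1 had no count in H69 and 235, 242 and 236 CPM in PD-L1 high, at least 5049-fold higher. ZEB2, a repressor of E-cadherin, rose from 0.880 ± 0.0636 to 59.6 ± 0.955 CPM, and TWIST2 was at least 72.8-fold higher from no count. ESRP2, a splicing factor of epithelial cells, fell by 2.00 ± 0.17, and KLF4 by 1.89 ± 0.09. Epithelial junction and keratin genes had 10 rises and 13 falls among 24 (median -0.60), beside 38.1% higher and 39.5% lower over all tested genes. KRT19 fell from 179.9 ± 10.3 to 15.5 ± 0.475 CPM and CLDN5 by 2.69 ± 0.10. P-cadherin (CDH3) rose from 2.16 ± 0.515 to 95.7 ± 2.12 CPM. CLDN1, a tight junction protein, rose by 8.05 ± 0.18, or 8.81 without H69 replicate 1. KRT17, a keratin of basal cells, had 1 H69 count and 42.1, 42.4 and 44.7 CPM in PD-L1 high.

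YAP1 had no count in the 3 H69 libraries and was at 205, 182 and 179.9 CPM in PD-L1 high, at least 4036-fold higher. WWTR1, which encodes TAZ, had 3 H69 counts and 177, 161 and 165 CPM in PD-L1 high, a ratio of 3574 (95% counting interval 1222 to 17333). The TEAD factors through which both act differed among themselves. TEAD1 was at 468 ± 23.5 CPM in H69 and fell by 0.28 ± 0.05. TEAD2 and TEAD3 had means of 0.0647 and 0.0898 CPM in H69 and of 67.9 and 25.2 CPM in PD-L1 high. Of 16 genes of the YAP, TAZ and TEAD module 12 rose (median 0.92). LATS2, the kinase that inhibits YAP1 and is also its target, was at least 328-fold higher from no count.

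YAP and TAZ targets rose in 18 of 22 cases (median 6.55). The promoters of CTGF (CCN2 in RefSeq) and ANKRD1, the classical targets, are printed because they show the TEAD letters GGAATG, in capitals, that these targets are known for, again as GRCh38.p14 runs that end at the base before the start.
CTGF (chr6:131951373-131951551, minus strand): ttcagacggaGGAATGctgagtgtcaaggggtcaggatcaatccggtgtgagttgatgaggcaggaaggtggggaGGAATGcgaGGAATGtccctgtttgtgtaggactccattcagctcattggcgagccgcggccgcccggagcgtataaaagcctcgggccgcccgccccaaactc
ANKRD1 (chr10:90921088-90921317, minus strand): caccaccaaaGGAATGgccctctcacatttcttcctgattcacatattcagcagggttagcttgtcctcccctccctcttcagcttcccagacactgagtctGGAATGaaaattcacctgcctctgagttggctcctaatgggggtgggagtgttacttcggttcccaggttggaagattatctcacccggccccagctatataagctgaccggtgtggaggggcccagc
Searched on both strands over 250 bases, GGAATG is in 5 of 17 matched targets (29.4%), in 9.3% of matched tested genes and in 11.9% of all promoters in the table. It is in 11.4% of genes that rose at least 4-fold and in 9.51% of those that fell at least 4-fold. The share in the targets is not particular to them. GGAATG is in 3 of 10 matched nucleic acid sensing genes (30.0%) and 4 of 14 matched HOX genes (28.6%), but in 0 of 21 matched proliferation genes. CTGF was at 0.121, 0.151 and 0 CPM in H69 and 573, 583 and 625 CPM in PD-L1 high, a log2 fold change of 12.32 ± 0.37. ANKRD1 had no count in H69 and 18.01, 22.2 and 25.1 CPM, at least 454-fold higher. AXL, a receptor tyrosine kinase and YAP1 target, had 1 H69 count and 185, 199.9 and 185 CPM in PD-L1 high, a ratio of 12126 (95% counting interval 2176 to 479017). The targets that fell were AMOTL1, by 1.22 ± 0.05, and FJX1, by 1.18 ± 0.05.

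Growth factor receptors changed in both directions. Of 38 receptor tyrosine kinases 22 rose and 12 fell (median 0.80). EGFR had no count in H69 and 67.8, 70.6 and 73.5 CPM in PD-L1 high, at least 1493-fold higher, and PDGFRB, the receptor of mesenchymal cells, was at least 1279-fold higher. The neurotrophin receptor NTRK2 fell from 6.52 ± 0.640 to 0.302 ± 0.140 CPM and RET, the receptor of glial-derived neurotrophic factors, from 3.61 ± 0.267 to 0.363 ± 0.255 CPM. Ligands rose in 20 of 28 cases (median 2.54) and fell in 5, or in 3 without PD-L1 high replicate 2. EGF and EREG, ligands of EGFR, had no count in H69 and were at 13.3 ± 1.06 and 11.2 ± 1.01 CPM in PD-L1 high. IGF1 and IGF2 fell, to 0.252 ± 0.0970 and 0.957 ± 0.0427 CPM. In the IGF axis, the binding protein IGFBP7 had 1 H69 count and a ratio of 12569 (95% counting interval 2255 to 496512). IGFBP3 rose by 11.16 ± 0.24, or 11.95 without H69 replicate 1. IGFBP5, another binding protein, fell from 1898 ± 97.6 to 591 ± 18.4 CPM.

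Genes downstream of MAPK signalling rose in 17 of 25 cases (median 1.24). ETV5, an ETS factor under ERK control, rose from 0.117 ± 0.102 to 90.8 ± 5.11 CPM. FOSL1, an AP-1 subunit, rose by 9.81 ± 0.22 on 5 H69 counts, with 9.13 without H69 replicate 1 and 11.16 without H69 replicate 2. FOS itself fell by 1.37 ± 0.16 and ATF3 by 0.75 ± 0.08. In the TGF-beta and activin pathway, 19 of 34 genes rose and 12 fell (median 0.37). The ligand gene TGFB1 was at 4.83, 4.003 and 5.08 CPM in H69 and 265, 302 and 281 CPM in PD-L1 high, and LTBP3, which anchors latent TGF-beta in the matrix, rose by 4.35 ± 0.08. BMP7, by contrast, fell from 87.7 ± 5.91 to 0.664 ± 0.0897 CPM, a log2 fold change of -7.01 ± 0.13 and the largest fall of that pathway. WNT genes rose in 16 of 28 cases (median 1.12). The inhibitor DKK1 was at least 131-fold higher, and the ligands WNT4 and WNT7B fell by 3.63 ± 0.19 and 3.36 ± 0.10.

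The Notch pathway had 10 rises and 15 falls among 26 (median -0.36), beside 38.1% higher and 39.5% lower over all tested genes. NOTCH3 was at 0.0402, 0.113 and 0.0807 CPM in H69 and 163, 166 and 164 CPM in PD-L1 high, and NOTCH1 rose by 4.98 ± 0.13. MFNG, a glycosyltransferase that tunes the receptors, rose to 2.71 ± 0.709 CPM. The ligand DLL4 fell by 1.91 ± 0.09. HEY2, a transcriptional target of the receptors, fell from 65.3 ± 3.92 to 7.98 ± 1.07 CPM.

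**Figure D3:**
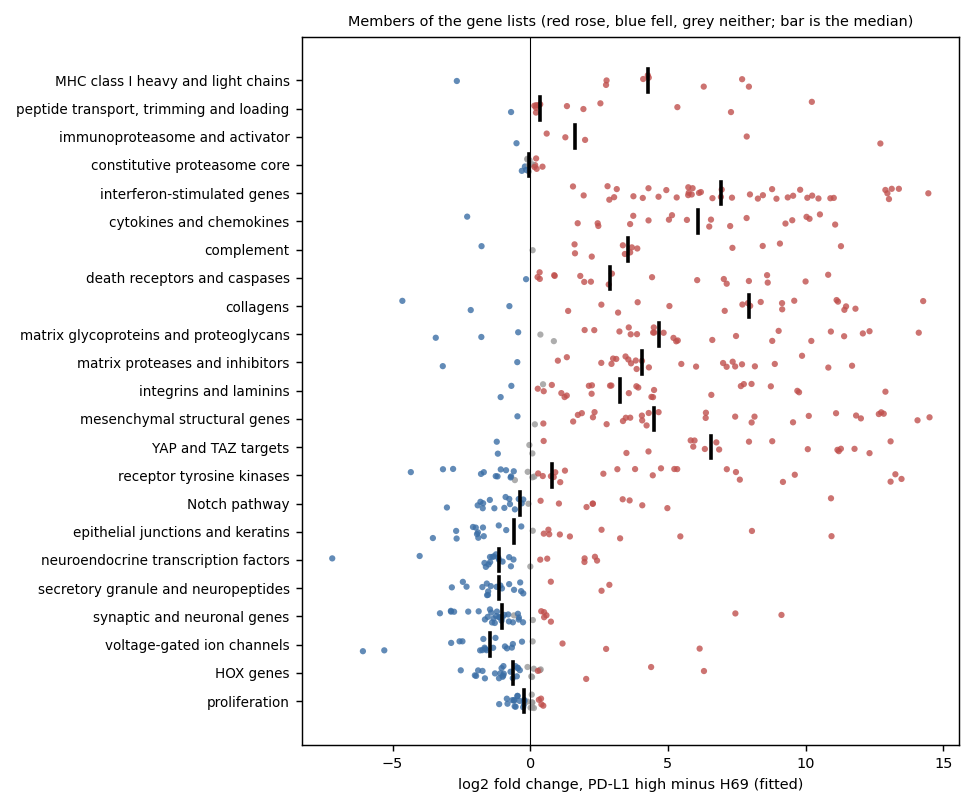
Log2 fold changes of PD-L1 high minus H69 for the tested members of 23 gene lists, 1 point per gene, with a bar at each list's median. The interferon-stimulated list has no member below zero and a median of 6.94, the collagens lie at 7.95, and the neuroendocrine, granule, synaptic and channel lists lie below zero with some members far above.

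Most neuroendocrine genes were lower, and INSM1 was still expressed. INSM1, the zinc finger factor of neuroendocrine cells, was at 1606, 1597 and 1679 CPM in H69 and 694, 706 and 663 CPM in PD-L1 high, a fall of 1.24 ± 0.05 on the log2 scale (edgeR adjusted p = 1.68e-15). The 2 groups did not overlap, and the PD-L1 high fraction kept a mean of 688 CPM. NEUROD1, a factor of neuronal differentiation, was low in H69 at 1.01, 0.831 and 0.807 CPM and had no count in PD-L1 high, at least 15.9-fold lower. Of 23 neuroendocrine transcription factors 16 fell and 6 rose (median -1.13), and the summed level of the list was 3803 to 3885 CPM in H69 and 2014 to 2034 CPM in PD-L1 high. Of the 16, 14 were also below unsorted H69M, where 23.4% of all tested genes were below both. The rises were not small: SOX11 went from 28.5 ± 3.44 to 147 ± 8.96 CPM and POU4F1 from 6.01 ± 0.974 to 23.2 ± 0.642 CPM. These developmental factors were at 201 and 27.1 CPM in the PD-L1 low fraction too. LHX2 fell by 4.02 ± 0.34, with -4.63 without PD-L1 high replicate 1.

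Products of neuroendocrine cells were lower as well. CHGA, the granule protein chromogranin A, went from 245, 244 and 257 CPM to 106, 104 and 109.9 CPM, and the vesicle protein gene SYP from 139.9 ± 13.98 CPM to 47.8 ± 1.87 CPM. NCAM1, the adhesion molecule CD56, went from 534, 515 and 520.3 CPM to 109.8, 111 and 109 CPM. The falls were 1.22 ± 0.05 for CHGA, 1.54 ± 0.07 for SYP and 2.25 ± 0.05 for NCAM1, and no library of one group overlapped the other. Granule and neuropeptide genes fell in 17 of 20 cases (median -1.15), and their sum was 3923 to 4325 CPM in H69 and 2248 to 2359 CPM in PD-L1 high. SCGN, a calcium sensor, fell by 2.85 ± 0.06 and the peptide gene GRP from 45.02 ± 1.47 to 8.31 ± 0.685 CPM. PTPRN, a receptor-like phosphatase of granule membranes, rose from 12.1 ± 0.700 to 89.1 ± 5.45 CPM, and VGF rose by 0.75 ± 0.08.

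Synaptic and neuronal genes fell in 27 of 36 cases (median -1.02). SYT4, a synaptotagmin, fell from 245 ± 16.1 to 25.2 ± 3.91 CPM and SV2B, a vesicle glycoprotein, from 167 ± 3.24 to 22.5 ± 1.67 CPM. NEFL, the light neurofilament, stood apart with 0.443, 0.453 and 0.0807 CPM in H69 and 227, 211 and 202 CPM in PD-L1 high, a rise of 9.12 ± 0.14, and NEFM, the medium chain, was at least 22.7-fold higher from no count. Ion channel genes fell in 18 of 22 cases (median -1.47). CACNA1D, an L-type calcium channel, fell from 12.98 ± 1.10 to 0.196 ± 0.0741 CPM, while KCNH6, a potassium channel, rose by 1.17 ± 0.10.

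REST, the repressor of neuronal genes, had 1 count over the H69 libraries and 48.5, 42.9 and 50.4 CPM in PD-L1 high, a ratio of 2997 (95% counting interval 537 to 118410.0). Of the 11 genes of REST and its corepressors 3 rose, 4 fell and 4 did neither (median -0.09). RCOR1, a corepressor scaffold, rose by 0.39 ± 0.05, and the methyltransferase gene EHMT2 fell by 0.60 ± 0.05. SRRM4, the splicing factor that makes the neuronal form of REST, rose by 1.09 ± 0.14, from 4.46 ± 1.13 to 9.57 ± 0.374 CPM, and its relative SRRM3 fell by 1.54 ± 0.10. In the MYC family 7 of 11 genes fell and 2 rose (median -0.49). MYCN was at 1607, 1514 and 1561 CPM in H69 and 439, 436 and 441 CPM in PD-L1 high, a fall of 1.83 ± 0.05. MYC rose from 3.63 ± 0.354 to 17.9 ± 0.231 CPM, the opposite direction to MYCN.

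Chromatin and growth genes moved less. EZH2, the methyltransferase of the PRC2 repressor complex, went from 307, 294 and 307 CPM to 217, 217 and 217 CPM, a fall of 0.48 ± 0.05, and the median of 14 PRC2 and demethylase genes was 0.03, with 4 rises and 6 falls. JARID2, a PRC2 subunit, fell by 0.65 ± 0.05, and SUZ12, a core subunit, rose by 0.43 ± 0.06. HOX genes fell in 21 of 31 cases (median -0.63). The few rises included HOXC13, from 0.0781 ± 0.0366 to 6.73 ± 0.371 CPM, and HOXC11, from 0.353 ± 0.106 to 8.07 ± 0.867 CPM. Among 19 listed cancer testis antigens, 9 had no count in any of the 6 libraries and 7 were tested. MAGEB2 had no count in H69 and 32.8, 32.4 and 31.02 CPM in PD-L1 high, at least 683-fold higher, while PRAME and MAGEA3, present in both, fell by 0.45 ± 0.05 and 0.41 ± 0.06. MAGEA genes are close copies, so the value of MAGEA3 is uncertain.

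Proliferation genes were slightly lower on balance, with 15 falls and 4 rises among 26 and a median of -0.22. E2F2 fell by 1.13 ± 0.06 and CCNE2, a cyclin of S-phase entry, by 0.85 ± 0.07, while TYMS, an enzyme of thymidylate synthesis, rose by 0.47 ± 0.04. CDKN1A (p21) fell from 518 ± 17.8 to 151 ± 9.77 CPM. CDK6 rose from 62.05 ± 8.95 to 267 ± 6.50 CPM, and CDKN2B (p15), its inhibitor, from 10.98 ± 2.38 to 63.99 ± 3.12 CPM. Of 28 glycolysis and hypoxia genes 21 rose (median 0.56), and the largest log2 fold change was 8.51. The prolyl hydroxylase gene P4HA2 rose by 3.18 ± 0.09, and GPI, a glycolytic enzyme, fell by 0.85 ± 0.05. Genes of the ATF4 amino acid response fell in 14 of 21 cases (median -0.50). The summed level of that list was 2219 to 2276 CPM in H69, 1593 to 1823 CPM in PD-L1 high and 5997 to 6361 CPM in PD-L1 low. TRIB3, a pseudokinase induced by ATF4, was at 25.6 CPM in H69, 52.04 CPM in PD-L1 high and 288 CPM in PD-L1 low. Of 20 heat shock and immediate early genes that handling can raise, 7 rose and 7 fell (median -0.04, range -1.89 to 6.28). These counts are near the shares over all tested genes, 38.1% higher and 39.5% lower. GADD45B rose by 4.30 ± 0.17 and BTG2 fell by 1.66 ± 0.07. H69 and H69M were not sorted and the fraction was, so the sort and the state cannot be told apart in this comparison.

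The largest changes among genes at or above the median level show what was gained and lost. Of the 10 largest rises, VIM, SPARC, YAP1, PRRX1, CAV2, COL6A2 and IFI44L are described above. MME, the cell surface peptidase CD10, had no count in H69 and 277, 255 and 254 CPM in PD-L1 high, at least 5587-fold higher. EDNRA, an endothelin receptor, was at least 3298-fold higher from no count. CD109, a membrane co-receptor of TGF-beta, had 1 H69 count and 420.0, 383 and 401 CPM in PD-L1 high. The 10 largest falls began with ADCY1, a brain adenylyl cyclase, which went from 236, 226 and 249 CPM to 2.45, 1.98 and 1.90 CPM, a log2 fold change of -6.79 ± 0.10. PRKCB, a protein kinase C isoform, fell from 256 ± 16.5 to 14.00 ± 1.27 CPM. ENPP2 (autotaxin), which makes lysophosphatidic acid, fell from 85.02 ± 4.99 to 4.08 ± 0.378 CPM. Channel and receptor genes of neurons were among them, GRIK3 falling by 4.24 ± 0.10 and KCNQ3 by 3.88 ± 0.08. The others were OLFM1, POF1B, MS4A8, TMEM176A and DACH1, with falls of 3.83 ± 0.08, 3.76 ± 0.08, 3.81 ± 0.08, 3.76 ± 0.07 and 3.56 ± 0.10.

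Unsorted H69M and the PD-L1 low fraction were set beside these values. Both comparisons with H69 share its libraries, so the direct contrast of PD-L1 high with H69M was used: it called 10873 genes (70.4%). PD-L1 high lay above both H69 and H69M at 4217 genes (27.3%) and below both at 3621 (23.4%). For the genes that rose by at least 4 on the log2 scale and reached 10 CPM, 613 in number, the H69M mean had a median of 24.4% of the PD-L1 high mean (quartiles 19.5% and 30.8%) and the PD-L1 low mean a median of 3.2% (1.22% and 10.8%). These genes were chosen for a high level in PD-L1 high, which lowers the level of any other group as a percent of it, so the percentages are a description of the chosen genes with no test. Unsorted H69M was at 459 CPM for VIM and 46.6 CPM for YAP1, and the PD-L1 low fraction at 23.7 and 2.75 CPM. The PD-L1 low fraction was above H69M at 37 of these genes. For 339 genes that fell by at least 2 on the log2 scale from 10 CPM or more, the median level as a share of H69 was 14.8% in PD-L1 high, 32.6% in H69M and 41.5% in PD-L1 low. The choice of genes that fell in PD-L1 high itself favours the lowest share in that group, so the order of its share against the other 2 is not a finding. ADCY1, 1 of these genes, was at 2.63 CPM in PD-L1 low.

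**Figure D4:**
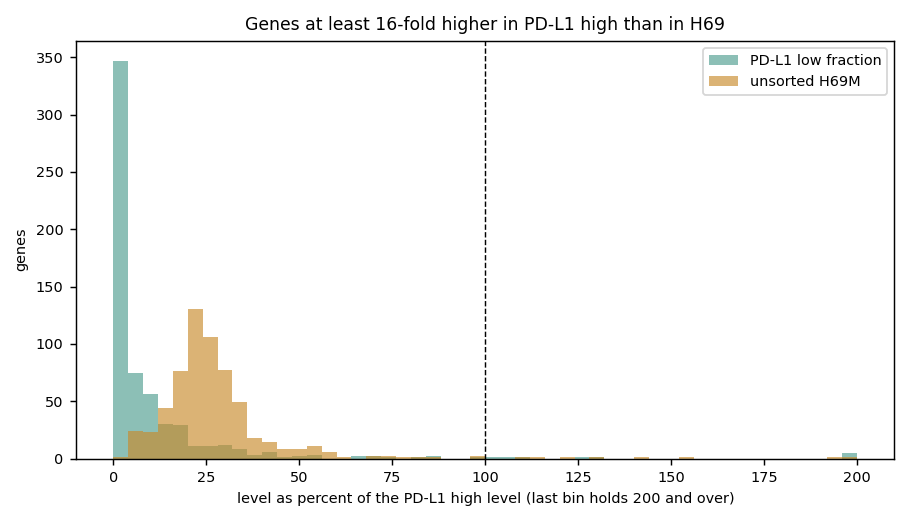
Histograms over the 613 genes that rose by at least 4 on the log2 scale and reached 10 CPM in PD-L1 high, of the unsorted H69M mean and the PD-L1 low mean as a percent of the PD-L1 high mean. The H69M values gather around a median of 24.4% and the PD-L1 low values around 3.2%, for genes chosen because they are high in PD-L1 high.

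Many genes were not on a line from H69 through H69M to the sorted fraction. Of 15445 tested genes, H69M was above H69 and PD-L1 high below H69M at 1819, and the reverse held at 1941. Both of those contrasts share the H69M libraries. PD-L1 high and H69M lay on opposite sides of H69 at fewer genes. At 487 genes PD-L1 high was above H69 and H69M below it, and at 567 the reverse. GJA1, the gap junction protein connexin 43, was at 104 ± 6.04 CPM in H69, 56.8 ± 8.85 CPM in H69M and 229 ± 18.1 CPM in PD-L1 high. PLEKHA2, an adaptor that binds phosphoinositides, was at 47.1 ± 3.31, 28.9 ± 2.35 and 131 ± 3.43 CPM in the same order, and ADD3, BVES and SAMD9 had the same order. In the other direction, CDH1, which encodes E-cadherin, was at 28.8 ± 2.17 CPM in H69, 51.9 ± 0.620 CPM in H69M and 12.9 ± 1.93 CPM in PD-L1 high. SCNN1A, a sodium channel of epithelia, was at 244 ± 23.99, 351 ± 13.4 and 85.4 ± 5.10 CPM, and LRP4, COL22A1 and HOXB5 had that order too. In the PD-L1 low fraction CDH1 was at 71.6 CPM and GJA1 at 11.2 CPM.

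At 2340 genes the 2 fractions of H69M differed while PD-L1 high did not pass the test against H69, with PD-L1 low the higher at 1313 and the lower at 1027. H19, an imprinted long noncoding RNA, was at 12.5, 10.01 and 10.2 CPM in H69, 10.2, 12.4 and 10.1 CPM in PD-L1 high and 293, 182 and 267 CPM in PD-L1 low. HOXB9 was at 54.1 ± 5.75 CPM in H69 and 55.1 ± 0.433 CPM in PD-L1 high, with 382 ± 22.4 CPM in PD-L1 low. MATN2, a matrix protein, and SOCS2, a regulator of cytokine signalling, were low in the PD-L1 low fraction, at 5.99 and 4.94 CPM, against 81.4 and 60.1 CPM in PD-L1 high and 87.1 and 64.7 CPM in H69. Their log2 differences from H69, -0.10 ± 0.06 and -0.12 ± 0.07, were called lower in 1 alternative each, at -0.14 for MATN2 with library totals in place of TMM and at -0.16 for SOCS2 without H69 replicate 3. NEAT1, a nuclear long noncoding RNA, varied within groups, at 376, 269 and 113 CPM in H69 and 151, 177 and 225 CPM in PD-L1 high (log2 fold change -0.47 ± 0.24, edgeR adjusted p = 0.0808), and was called lower with no filter on low counts (-0.50), without H69 replicate 3 (-0.81) or without PD-L1 high replicate 3 (-0.65). A missed threshold does not show that these genes are equal in the groups.

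**Figure D5:**
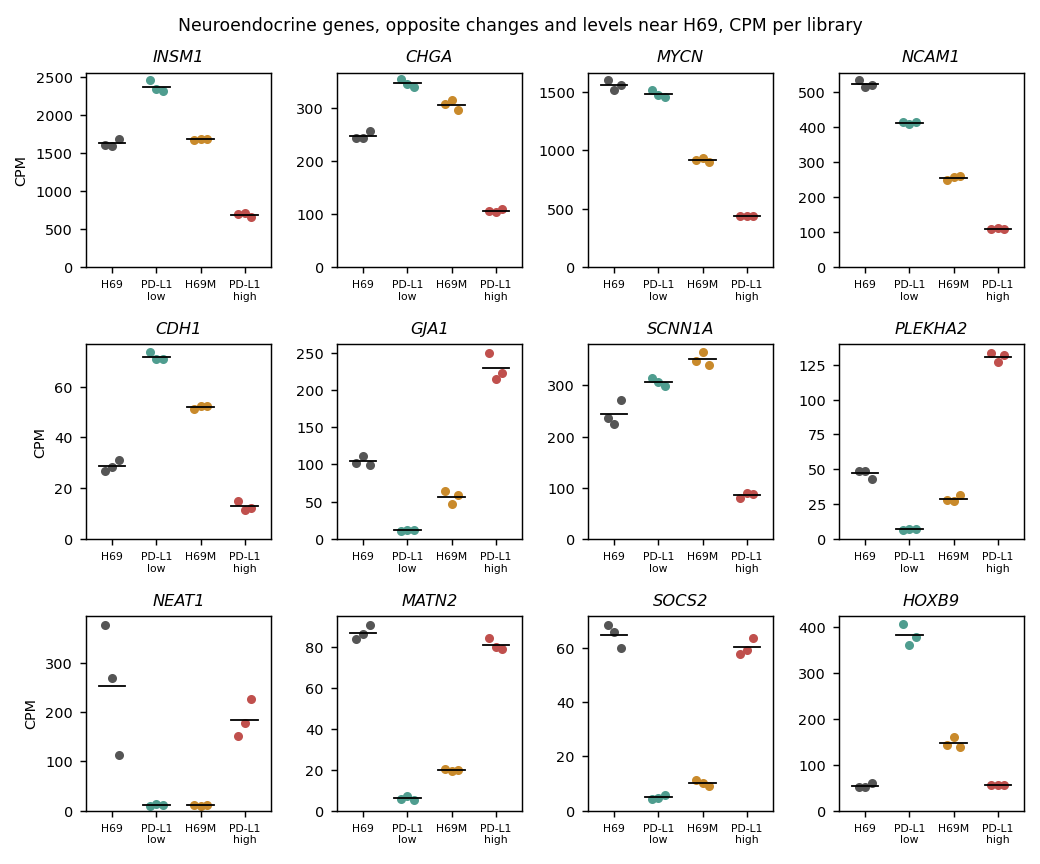
Levels of 12 genes in each of the 12 libraries (CPM, linear axis), ordered H69, PD-L1 low, unsorted H69M and PD-L1 high, with a bar at each group mean. INSM1, CHGA, MYCN and NCAM1 are lowest in PD-L1 high; CDH1 and SCNN1A are higher in H69M than in H69 and lowest in PD-L1 high; MATN2 and SOCS2 did not pass the test between H69 and PD-L1 high and are lower in the other groups; NEAT1 is spread widely in H69 and lower in PD-L1 low and H69M.

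Markers of other cell types were measured because several of the rises are genes of stroma. Of 16 fibroblast and stromal markers 12 were tested, 9 rose and 2 fell (median 4.76). Their summed level was 681 to 713 CPM in H69 and 11571 to 11863 CPM in PD-L1 high, with PDPN at 0 in all 6 libraries. LUM, a proteoglycan of connective tissue, had 2 H69 counts and 101 ± 7.66 CPM in PD-L1 high, whereas POSTN, a matrix protein of fibroblasts, was already at 453 ± 12.7 CPM in H69 and fell to 334 ± 1.11 CPM. Of 14 endothelial markers 10 were tested and 6 rose (median 3.37), with a summed level of 50.6 to 56.9 and 78.6 to 83.2 CPM. KDR and FLT1, receptors of VEGF, reached 4.84 and 12.7 CPM from no count and 1 count over the H69 libraries, VWF fell by 1.78 ± 0.23, and SOX17 was at 0 in all 6 libraries. Of 22 leukocyte markers 10 were at 0 in all 6 libraries, among them CD2, CD3D, CD3E, CD3G, MS4A1, NKG7 and TYROBP, and 5 were tested, with a summed level of 23.1 to 23.8 CPM in H69 and 35.00 to 36.9 CPM in PD-L1 high. PTPRC, the pan-leukocyte marker CD45, fell and was at 1.41, 1.51 and 1.13 CPM in H69 and 0.538, 0.481 and 0.211 CPM in PD-L1 high. CSF1R, a macrophage receptor, rose to 2.61 ± 0.367 CPM and CD68 to 6.36 ± 0.831 CPM, the log2 fold change of CD68 being 3.14 ± 0.24 and 3.77 without H69 replicate 1. The part of other cells in the matrix and stromal rises was not tested.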

How the data were processed

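RNA sequencing libraries of total RNA (Qiagen RNeasy), enriched by an Illumina exome capture kit and read on a NextSeq 500, are described per the labels' protocols. The authors deposited whole-number read counts per gene. STAR 2.6.1 and the build hg19 are named per the submitters' processing notes; no source used here names the counting program, its annotation or its strand setting, which leaves overlapping and antisense genes uncertain. Exome capture sees only targeted transcripts.

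Counts of the 12 libraries of the H69 table (4 groups of 3) were fitted in R 4.3.3 with edgeR 4.0.16 (TMM, filterByExpr with a minimum count of 10, quasi-likelihood F-test, two-sided, 8 residual degrees of freedom), with Benjamini-Hochberg adjustment over the 15445 tested genes and a threshold of 0.05. The common biological coefficient of variation was 0.054. The SE was computed as the absolute log2 fold change divided by the root of F. Genes with no count in a group are given as a bound against 3 counts over the group, and those with 1 to 3 counts as a ratio with an exact binomial 95% interval, both covering counting error only. No pair of replicates was identical; their chi-square per degree of freedom was 2.208 to 7.822. The replicate numbers of the labels did not pair the libraries: deviations of same-numbered H69 and PD-L1 high libraries correlated at -0.30, -0.38 and -0.18 across genes.

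Named genes are a panel of MHC class I, interferon, lineage and sorted genes, then the 10 largest rises and falls at or above the median level, the up to 3 largest rises and 2 largest falls of each gene list, and the 5 leading genes of each pattern across groups, all with groups that do not overlap except the last pattern; the markers listed at 0 were named after their values were seen. A few genes of the rule are not reported here. The members and gene lists were chosen with earlier results of these data known. Promoters are RefSeq's on GRCh38.p14, matched by symbol or older symbol. On simulated counts (15152 genes tested), 94% of 2-fold and 88.9% of 1.5-fold changes were called, and 9 unchanged genes. Whether these rates hold for the measured libraries was not tested. Alternatives were a replicate block, DESeq2 1.42.0 size factors or test, library totals alone, limma-voom (limma 3.58.1), no filter, a minimum count of 100, a fit of the 6 compared libraries alone, a test against a 2-fold minimum, and leaving out every library once.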

Additional observations from a re-analysis of the deposited data

How the results depend on the processing

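A test against a 2-fold minimum called 4117 genes for PD-L1 high minus H69 (2575 higher, 1542 lower) and 2513 for PD-L1 high minus H69M (1790 higher, 723 lower). With each library left out in turn, the first comparison called 11588 to 12167 genes (5605 to 5983 higher, 5867 to 6265 lower) and the second 10249 to 11210. Every other alternative gave a total of called genes for these comparisons, and for each direction, within 1.5 times of that in the report. The counts of list members that rose or fell, 96 in all, moved more: by over 1.5 times in 49 under the 2-fold minimum, 10 with a minimum count of 100, 3 in the fit of only the groups compared, 2 each with library totals and with no filter, 1 each with DESeq2's size factors and test, and at most 4 with any 1 library left out. DESeq2's test called 11669 genes, limma-voom 11971 and library totals without TMM 12041, and the median log2 fold change over all genes ran from -0.07 to 0.02 across the scalings. No named gene changed direction under any alternative, but 37 of 217 lost their call under the 2-fold minimum, among them EZH2, THOP1, RFX5, USP18, SRRM4, CDH1 (adjusted p = 0.064 by edgeR) and GJA1 (0.068). Elsewhere, lost calls were those of CFLAR and PSMB10, and NEAT1, MATN2 and SOCS2 gained one. Genes near zero counts in H69 have fitted changes that depend on the prior count: limma-voom gave 12.89 for YAP1, against 14.90.

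With the replicate number as a block, 11798 genes were called for PD-L1 high minus H69 (5791 higher, 6007 lower) and 10634 for PD-L1 high minus H69M. The replicate block changed no call of a named gene and no list count by over 1.5 times, and same-numbered libraries did not correlate best with each other.

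Depth limits genes near the floor of 3 counts over a group; with 3 libraries a group, the precision rests on a spread shared across 12 libraries.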

Other observations

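Some genes that the naming rule chose were not described above; their log2 fold changes compare PD-L1 high with H69. Among signalling factors, TCF7L2, a transcription factor of WNT signalling, rose from 0.0655 ± 0.0220 to 24.7 ± 2.78 CPM, and DUSP5, a phosphatase that limits ERK, from 0.447 ± 0.143 to 22.7 ± 1.81 CPM. NOG, an antagonist of BMPs, had 2 H69 counts and 3.43, 2.99 and 3.80 CPM in PD-L1 high. ACVRL1, a receptor of BMP ligands, fell by 2.73 ± 0.29 on the log2 scale (± SE). FGF7, a growth factor for epithelia, had no count in H69 and was at least 62.5-fold higher. The RNA-binding protein gene IGF2BP2 had 1 H69 count and 129, 141 and 142 CPM in PD-L1 high. Complement factor B (CFB) had 1 H69 count and 8.08, 7.59 and 7.03 CPM in PD-L1 high.

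In the amino acid response, FGF21 had a mean of 0.837 CPM in H69, 0.182 CPM in PD-L1 high and 19.5 CPM in PD-L1 low, and INHBE at 30.01, 12.9 and 153 CPM in the same order. SLC7A11, the cystine transporter, rose by 0.49 ± 0.11 on the log2 scale and VLDLR, a lipoprotein receptor, by 1.23 ± 0.07. CA9, a carbonic anhydrase induced by hypoxia, was at 0.563, 0.680 and 0.484 CPM in H69, 11.2, 7.26 and 6.89 CPM in PD-L1 high and 19.3, 15.02 and 17.1 CPM in PD-L1 low. The vesicle protein gene RAB3B was at 72.6 ± 3.03 CPM in H69 and 122 ± 1.18 CPM in PD-L1 high, with 329 ± 24.7 CPM in unsorted H69M. The cell cycle genes AURKA and CDC20 rose by 0.39 ± 0.06 and 0.41 ± 0.05 on that scale, and CDKN1C (p57), an inhibitor of cyclin-dependent kinases, rose from 4.71 ± 0.697 to 14.2 ± 1.52 CPM.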
